A study of Arabidopsis thaliana with 48 samples.

Results

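The comparison described here is gcn2 against wild type in small polysomes of mock-treated Arabidopsis seedlings. Its members are the arrays whose titles name the SP fraction and mock treatment, 3 of gcn2 and 3 of wild type, which makes 6 of the 48 arrays of the series. Both genotypes are of the line Landsberg erecta, and both were 10 day old seedlings grown on agar medium with sucrose under long days. They were dipped in the solvent of a herbicide stock without the herbicide, incubated for 2 h, and the aerial part was harvested. The labels call the mutant gcn2 and give neither its allele nor the number of lines. Seedling extracts were spun through sucrose gradients, and the middle fractions of each gradient were pooled as small polysomes, between a lighter non-polysomal pool and a heavier pool of large polysomes. The remaining arrays hold those pools, total RNA, and seedlings treated with the herbicide chlorsulfuron (chlorosufuron in the labels), and the submitters' design names the role of GCN2 in stress responses and translation as the question.

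GCN2 is a protein kinase that senses uncharged tRNA and phosphorylates the alpha subunit of the translation initiation factor eIF2. Phosphorylated eIF2 blocks its own exchange factor, eIF2B, so that fewer ribosomes start on mRNAs when amino acids run short. An mRNA that carries few ribosomes sediments with small polysomes, one that carries many with large polysomes, and one without ribosomes stays near the top of the gradient. RNA in a small polysome pool can therefore change because the transcript became more or less abundant or because its number of ribosomes changed, and the array alone does not separate these. Chlorsulfuron inhibits acetolactate synthase, an enzyme of branched-chain amino acid synthesis, and none of it was given to the 6 arrays compared.

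RNA was measured on Affymetrix ATH1 arrays, where a probe set is a group of short probes for 1 transcript or a few. Values are on the log2 scale, so a difference of 1 is a 2-fold difference. Of 22746 probe sets tested, 13513 carried the name of 1 gene, 503 of several, and 8730 were unnamed here. The median of the 6 arrays lay between 6.15 and 6.22, and the lower quartile between 3.47 and 3.68. A group mean under the lowest of these lower quartiles is called dim, and the size of a difference from it is uncertain. The arrays carry no counts, so their number limits the precision. The arrays had like distributions, which normalization across arrays produces, so a change of all RNAs together could not be seen in these values. The labels do not say that replicates were separate cultures, and p-values then measure only the spread between these samples.

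The array labelled wild-type mock replicate 3 stood apart from replicates 1 and 2 of its group. Over all probe sets it correlated at r = 0.9826 and 0.9912 with wild-type mock replicates 1 and 2, against 0.9935 and 0.9955 with wild-type herbicide replicates 1 and 2. The array labelled wild-type herbicide replicate 3 showed the opposite, with r = 0.9889 and 0.9895 with the other herbicide arrays and 0.99 and 0.9958 with the mock arrays. A list of 15 genes that herbicide raised in total RNA of this series showed the same order. Their mean level was 9.36, 9.52 and 9.40 in gcn2 herbicide arrays and 5.75, 5.75 and 6.06 in gcn2 mock arrays. In wild type it was 7.77, 7.79 and 5.99 in the arrays labelled herbicide and 5.91, 5.98 and 7.76 in those labelled mock. Whether these 2 arrays were exchanged was not tested, and no label was changed. Throughout, the third wild-type value comes from the array labelled wild-type mock replicate 3, and results are given with it. For the counts, the lost calls and some genes and medians, values without wild-type replicate 3 of both treatments are also given. Where none is given, a result can still depend on that array.

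**Figure D1:**
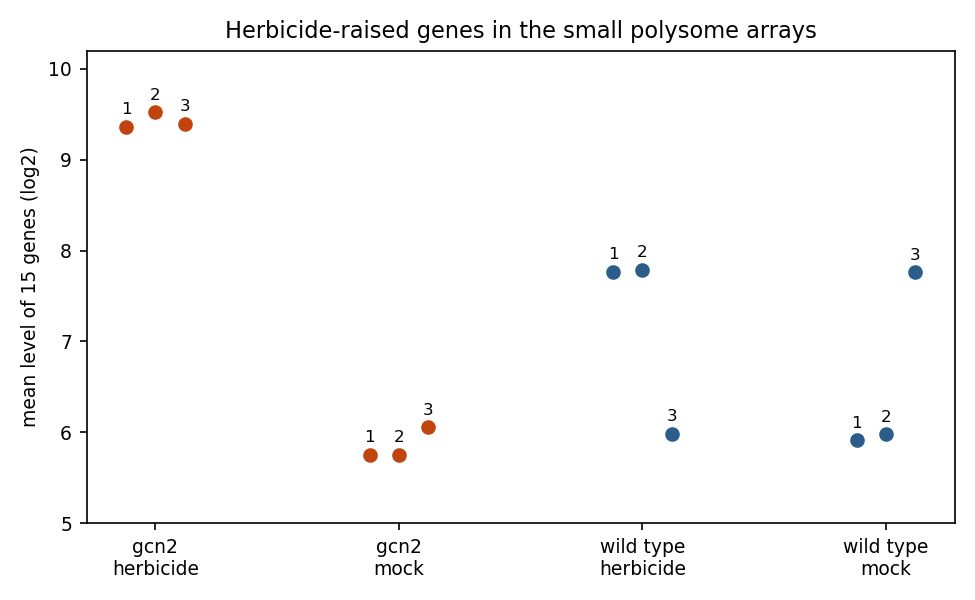
Mean log2 level of 15 herbicide-raised genes in each of the 12 small polysome arrays, by group on the x axis, with replicate numbers above the points. In wild type, replicate 3 lay at 5.99 in the herbicide group and at 7.76 in the mock group, each at the level of the other group's replicates 1 and 2.

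The labelled tissue was checked against marker genes. RCA, the activase of the photosynthetic enzyme Rubisco, was at 11.92, 12.79 and 12.54 in gcn2 and at 11.69, 12.66 and 12.69 in wild type, and was the 1 of 7 aerial markers with a probe set of its own. Of the 4 root markers, the root hair expansin genes EXPA7 and EXPA18 and the peroxidase gene AT5G17820 lay between 2.62 and 3.47 in gcn2 and between 2.71 and 3.77 in wild type, near or under the lower quartile. PYK10, a beta-glucosidase abundant in roots and hypocotyls, was bright, at 9.84, 10.58 and 10.07 in gcn2 and 9.59, 10.29 and 10.25 in wild type. The mean level of the root list was 4.66 to 4.96 in gcn2 and 4.86 to 5.12 in wild type. Of its 4 members 0 passed the test, which is near the 0.0747% of all probe sets. GCN2 itself was named for no single probe set and was not analysed here, so the genotype labels could not be checked on the mutated gene.

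In mock small polysomes, gcn2 differed from wild type at few transcripts, and the larger differences were many-fold. By limma with Benjamini-Hochberg adjustment over all probe sets, 17 of 22746 passed at 0.05, which is 0.0747%. Of these, 11 were higher in gcn2 (0.0484%) and 6 lower (0.0264%), and 14 had a single named gene (0.104% of 13513). At an unadjusted p under 0.05 there were 821 probe sets, 307 higher and 514 lower in gcn2, and the median difference of all probe sets was -0.01. The 821 are fewer than a 0.05 share of all probe sets, so they do not show a wider layer of differences. The count was 1374 with the replicate number as a block and 624 without wild-type replicate 3 in both treatments. In each of the 17 the 3 gcn2 values lay wholly above or wholly below the 3 wild-type values, which held for 2.56% of all probe sets with gcn2 higher and 4.26% with gcn2 lower. The 17 were picked on these same values, so their lack of overlap is no separate support. Without wild-type replicate 3 in both treatments 13 passed, 12 of them among the 17. The calls lost were AT5G44880, AT4G08680, AT1G12000, AT4G12490 and AT5G53240, with adjusted p from 0.12 to 0.4. Of the 17, 11 kept their call in all 14 alternative settings and 6 lost it in at least 1. Fewer cells of a type and less RNA per cell cannot be told apart in these bulk samples. RefSeq classes 9 of the 14 genes as protein coding and 5 as pseudogenes, against 7.32% pseudogenes among all probe sets with 1 gene. Of the 17, 11 belong to genes known to differ in mock total RNA of the same series, from plants with the same replicate numbers, so those 11 are not independent evidence of a direction.

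**Figure D2:**
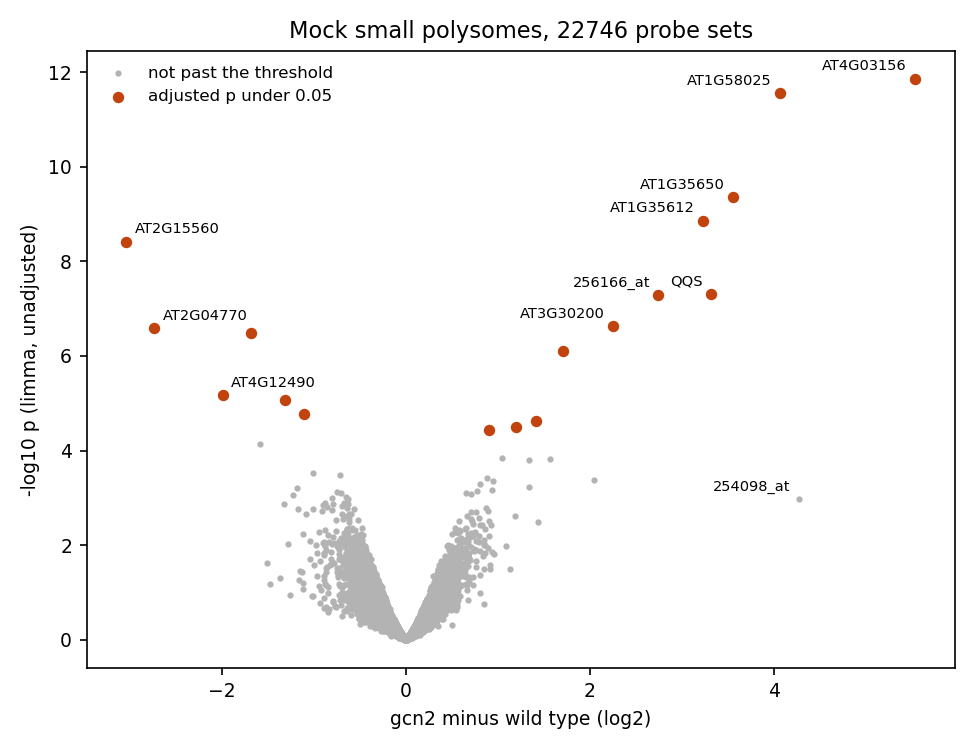
Each point is 1 of 22746 probe sets, with the log2 difference of gcn2 minus wild type in mock small polysomes on the x axis and the negative log10 of limma's unadjusted p on the y axis. The 17 red points passed at an adjusted p of 0.05, and the grey point at a difference of 4.27 is the probe set 254098_at, which did not pass.

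The largest difference was at AT4G03156, a protein-coding gene. It was at 7.95, 7.94 and 8.26 in gcn2 and at 2.86, 2.26 and 2.41 in wild type, a difference of 5.54 ± 0.26 (SE) or 46.4-fold (adjusted p = 3.1e-08). The gcn2 values were clear of the wild-type ones by over 5 log2 units, and the wild-type values were dim, so the fold is uncertain in size. AT1G58025, which encodes a bromodomain protein, was bright in gcn2 at 9.01, 9.24 and 9.46, against 4.91, 5.12 and 5.49 in wild type. The difference was 4.06 ± 0.20 or 16.7-fold (adjusted p = 3.1e-08), and both groups lay above the lower quartile. Neither gene changed its call in any of the 14 alternative settings.

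QQS is an orphan gene, without recognised relatives outside its species, that affects starch content. It was at 6.71, 6.78 and 7.64 in gcn2 and at 4.04, 3.77 and 3.37 in wild type, higher by 3.32 ± 0.33 or 9.97-fold (adjusted p = 0.00017). All gcn2 arrays were above all wild-type arrays by more than 2 log2 units, with replicate 3 the highest in gcn2 and the lowest in wild type. AT3G30200 was at 5.07, 4.92 and 5.75 in gcn2 and at 2.89, 2.97 and 3.12 in wild type, where it was dim, a 4.77-fold difference (adjusted p = 0.00065). AT1G12000 encodes the beta subunit of the pyrophosphate-dependent phosphofructokinase of glycolysis. It was at 8.95, 9.08 and 8.91 in gcn2 and at 7.91, 8.25 and 8.08 in wild type. Its difference of 0.90 ± 0.16 or 1.87-fold was the smallest of the 17 (adjusted p = 0.048), and the call was lost without any 1 of the 6 arrays, with differences of 0.81 to 0.99.

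Pseudogenes are gene copies or remnants that are annotated as not coding for a working protein, and 4 of them were higher in gcn2. AT1G35650 was at 7.24, 6.72 and 7.07 in gcn2 and at 3.96, 3.06 and 3.35 in wild type, higher by 3.55 ± 0.25 or 11.7-fold (adjusted p = 3.4e-06), from a dim wild-type mean. AT1G35612 was at 7.91, 7.93 and 7.24 in gcn2 and at 4.62, 4.14 and 4.66 in wild type, higher by 3.22 ± 0.25 or 9.34-fold (adjusted p = 7.9e-06). Both groups of AT1G35612 were above the lower quartile and lay over 2 log2 units apart. AT5G44880 was higher by 1.42 ± 0.24 (adjusted p = 0.036), with 5.40, 4.80 and 4.97 in gcn2 and 3.97, 3.33 and 3.61 in wild type. AT4G08680 was higher by 1.20 ± 0.21 (adjusted p = 0.045), with 4.97, 4.49 and 4.76 in gcn2 and 3.68, 3.49 and 3.45 in wild type. These smaller differences passed narrowly. The wild-type means, 3.64 for AT5G44880 and 3.54 for AT4G08680, lay within the range of the lower quartiles, so the sizes are uncertain. AT5G44880 lost its call without any 1 array other than wild-type replicate 1, and AT4G08680 without any 1 of the 6. The probe sets of AT1G35650 and AT4G08680 are of the type that can bind transcripts of related genes, so the source among related copies is uncertain.

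A pair of probe sets without a single gene was also higher. The probe set 256166_at, shared by the loci AT1G36922 and AT1G36920, was at 5.31, 5.61 and 5.93 in gcn2 and at 3.18, 2.83 and 2.61 in wild type, higher by 2.75 ± 0.28 (adjusted p = 0.00017). The unnamed 266353_at was tightly grouped, at 6.0, 5.95 and 5.90 in gcn2 and at 4.18, 4.17 and 4.39 in wild type, higher by 1.70 ± 0.21 (adjusted p = 0.0016).

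Among the 6 lower probe sets, AT2G15560, a protein-coding gene, had the largest difference. It was at 4.20, 4.75 and 4.41 in gcn2 and at 6.98, 7.53 and 7.96 in wild type, lower by a log2 difference of -3.04 ± 0.25, which is 0.122 of the wild-type level (adjusted p = 1.7e-05). The pseudogene AT2G04770 was at 5.05, 3.95 and 4.24 in gcn2 and at 6.91, 7.55 and 6.97 in wild type, with a difference of -2.73 ± 0.31 (adjusted p = 0.00065). Its probe set is of the type that can bind unrelated transcripts in part. For both genes the groups were well apart, with the highest gcn2 value under the lowest wild-type value by more than 1 log2 unit.

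AT4G12490, a lipid-transfer-like protein gene of the family of EARLI1, was at 5.45, 5.47 and 4.08 in gcn2 and at 6.98, 6.86 and 7.12 in wild type, with a difference of -1.99 ± 0.30 (adjusted p = 0.013). The spread was larger in gcn2 (SD 0.796) than in wild type (SD 0.132) because replicate 3 was lower than the other gcn2 arrays. The call was lost without any 1 wild-type array, with differences of -2.05 to -1.92. AT2G13430, a protein-coding gene, was at 5.25, 4.84 and 5.45 in gcn2 and at 6.70, 7.12 and 6.79 in wild type, with a difference of -1.69 ± 0.20 (adjusted p = 0.00075). AT5G53240 was at 3.50, 3.92 and 4.13 in gcn2 and at 4.97, 5.17 and 5.35 in wild type, a difference of -1.32 ± 0.20 (adjusted p = 0.015), which was lost without replicate 1 or 2 of gcn2 or 2 or 3 of wild type. The unnamed 252690_at was at 5.49, 5.40 and 5.14 in gcn2 and at 6.48, 6.53 and 6.33 in wild type, a difference of -1.10 ± 0.18 (adjusted p = 0.028) that was lost without any 1 of the 6 arrays. No gcn2 array reached the lowest wild-type array in any of these 4 probe sets.

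**Figure D3:**
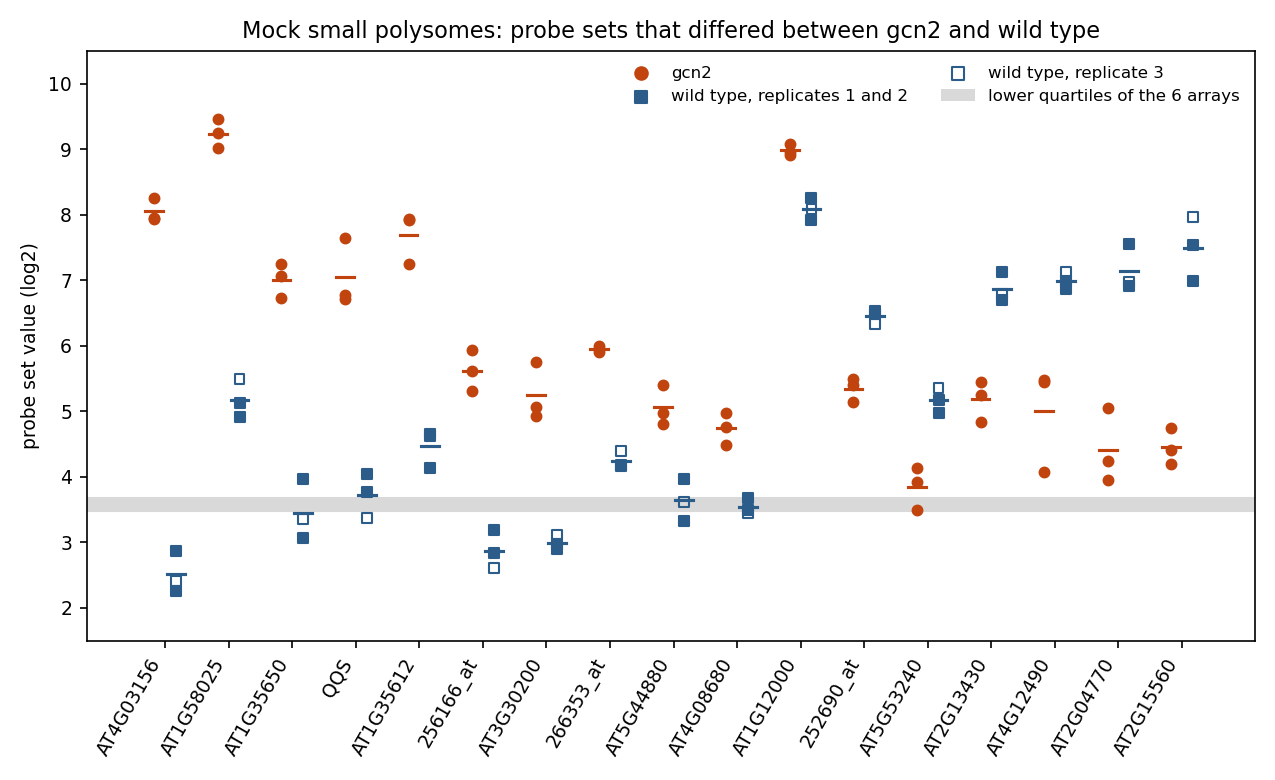
Log2 values of the 17 probe sets that passed, in order of their difference, with gcn2 arrays as circles to the left and wild-type arrays as squares to the right of each name, and the group means as bars. The open square is the array labelled wild-type mock replicate 3, and the grey band marks the lower quartiles of the 6 arrays, from 3.47 to 3.68. The groups did not overlap in any of the 17, which were picked on these same values.

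The remaining 5 genes of the 16 known from mock total RNA did not pass in small polysomes. AT1G42705, a pseudogene, was at 4.53, 5.28 and 5.94 in gcn2 and at 3.46, 3.91 and 3.66 in wild type, a difference of 1.57 ± 0.31 (adjusted p = 0.17). With the replicate number as a block its adjusted p was 0.0085. AT4G22470, another lipid-transfer-like protein gene, was at 6.40, 6.63 and 7.03 in gcn2 and at 7.90, 7.81 and 6.94 in wild type, so the groups overlapped through replicate 3 of both (difference -0.86 ± 0.30, adjusted p = 1). AT2G36885 had a difference of -0.90 ± 0.23 (adjusted p = 0.70), and the pseudogenes AT2G13160 and AT1G33130 had -1.04 and -0.47, with AT2G13160 dim in gcn2 and AT1G33130 dim in both groups. AT2G01090 passed when wild-type replicate 3 was left out, with a difference of -1.59 (adjusted p = 0.041), against -1.23 with it (adjusted p = 0.55). It was at 3.39, 3.67 and 3.93 in gcn2 and at 5.15, 5.36 and 4.15 in wild type.

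The gene lists are small, and at the 0.0747% of all probe sets that passed, a count of 0 in any of them is near that background and says nothing particular about its members. Of 19 listed genes of the eIF2 and GCN2 pathway, 8 were measured by a probe set of their own, 0 passed in either direction, and the median difference was 0.09, against -0.01 for all probe sets. ILA, the plant counterpart of the GCN2 activator GCN1, was at 6.17, 6.37 and 6.23 in gcn2 and at 6.25, 6.45 and 6.07 in wild type. AT2G40290, which encodes the alpha subunit of eIF2, was at 9.23, 9.27 and 8.97 in gcn2 and at 9.01, 9.01 and 9.27 in wild type. The groups overlapped in both. The highest and the lowest difference belonged to genes annotated as subunits of the exchange factor eIF2B or close to it, AT2G34970 at 0.22 ± 0.18 and AT4G18300 at -0.18 ± 0.18. Of 21 cap-binding, eIF3 and poly(A)-binding genes only EIF4A-2 (0.12) and AT4G20980 (0.16) were measured, and of 27 cytosolic ribosomal protein genes 8 were, with 0 passing and a median of -0.04.

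Amino acid metabolism lists were measured in part, and counts of 0 in them are near the 0.0747% of all probe sets. Of 18 branched-chain amino acid synthesis genes 4 were measured, with 0 passing and a median difference of -0.01. AT2G31810, a regulatory subunit of acetolactate synthase, was at 7.06, 7.45 and 7.28 in gcn2 and at 6.97, 7.46 and 6.56 in wild type, with overlapping groups and a difference of 0.27 ± 0.22. The catalytic subunit gene CSR1 and the other regulatory subunit gene, AT5G16290, were named for no single probe set and were not analysed here. In branched-chain amino acid breakdown 6 of 15 genes were measured, 0 passed, and the median was 0.05. AT5G09300, annotated to the keto acid dehydrogenase step of that pathway, was at 7.70, 7.55 and 6.30 in gcn2 and at 7.92, 7.45 and 7.68 in wild type (-0.50 ± 0.30), and D2HGDH had the highest difference (0.37 ± 0.20). No gene of the list of other amino acid metabolism had a probe set of its own among its 13.

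Lists of regulated, stress and organelle genes gave 1 call, AT4G12490, and counts of 0 are again near the 0.0747% of all probe sets. Of 16 mRNAs with conserved upstream reading frames, which control translation of the main frame, 7 were measured and 0 passed (median -0.03, from -0.26 for AT1G70780 to 0.18 for AT5G15950). Of 14 defence and lipid-transfer-like genes 5 were measured, with 0 higher and 1 lower, AT4G12490, and a median of -0.46. AT4G12500, its neighbour in the genome and a member of the same family, was dim in both groups, at 2.60, 2.91 and 2.67 in gcn2 and 3.03, 3.04 and 3.47 in wild type, and did not pass. The measured heat shock and unfolded protein response genes, 5 of 18, had a median of 0.21, or 0.08 without wild-type replicate 3, and 0 passed. AT1G53540, a small heat shock protein gene, was at 7.10, 5.63 and 6.82 in gcn2 and at 5.88, 5.83 and 5.02 in wild type (0.94 ± 0.34, adjusted p = 1). Of 69 plastid-encoded genes 0 passed, with a median of -0.06 and a range of -0.38 for ndhH to 0.35 for ndhF. Their median was -0.20 without wild-type replicate 3. The 3 measured of 21 nuclear photosynthesis genes had a median of -0.04, and the clock gene GI, the 1 measured of 11, had a difference of -0.26 ± 0.15.

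All 15 herbicide-raised genes had differences at or under 0, from -1.48 for AT2G41730 to 0.00 for CML41, with a median of -0.70. Of them 0 passed, which is near the 0.0747% of all probe sets. AT2G41730 was at 8.89, 8.75 and 8.42 in gcn2 and at 8.98, 9.18 and 12.32 in wild type, so that replicate 3 alone was high. Without wild-type replicate 3 the median was -0.05, and the difference of AT2G41730 was -0.39 and that of STZ -0.16. STZ, a zinc finger repressor of abiotic stress responses, had the lowest difference of the 4 measured stress transcription factor genes out of 17, with 7.67, 7.62 and 8.33 in gcn2 and 8.00, 8.07 and 9.48 in wild type (-0.64 ± 0.49), and WRKY22 the highest (0.15). BZIP60, which switches on endoplasmic reticulum folding genes, was at 6.84, 7.29 and 7.54 in gcn2 and at 7.02, 7.26 and 8.60 in wild type. Its difference was -0.40, and it was 0.08 without that array.

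For the 14 called genes, the measured genes closest on each side (up to 2 per side, within 20 annotated genes) numbered 55. Their differences ran from -0.51 to 0.71 with a median of -0.01, and 0 passed, which is near the 0.0747% of all probe sets. No called gene was among these closest measured neighbours of another called gene, and pairs farther apart were not counted. The called pseudogenes AT1G35612 and AT1G35650 have close locus numbers, and the number of genes between them was not counted. Neighbours were taken from the RefSeq order of the Columbia reference assembly TAIR10.1, and the plants are Landsberg erecta.

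An unnamed probe set that did not pass, 254098_at, had a difference next in size to that of AT4G03156, and it was picked out after its values were seen. It was at 10.14, 10.58 and 4.31 in gcn2 mock small polysomes and at 4.18, 4.06 and 3.98 in wild type, a difference of 4.27 ± 1.06 (adjusted p = 0.60). Replicates 1 and 2 of gcn2 were high and replicate 3 was near the wild-type level, above it by less than 1 log2 unit. Its range within the gcn2 group was 6.27, and the next largest range of any probe set there was 3.19. Replicate 3 was also the lowest in the other RNA of the gcn2 mock group, with 9.71, 10.28 and 4.22 in gcn2 mock non-polysomal RNA, 10.05, 10.19 and 7.67 in large polysomes and 10.35, 10.44 and 4.64 in total RNA. In the 36 arrays of the other 3 combinations of genotype and treatment it lay between 3.35 and 4.43.

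**Figure D4:**
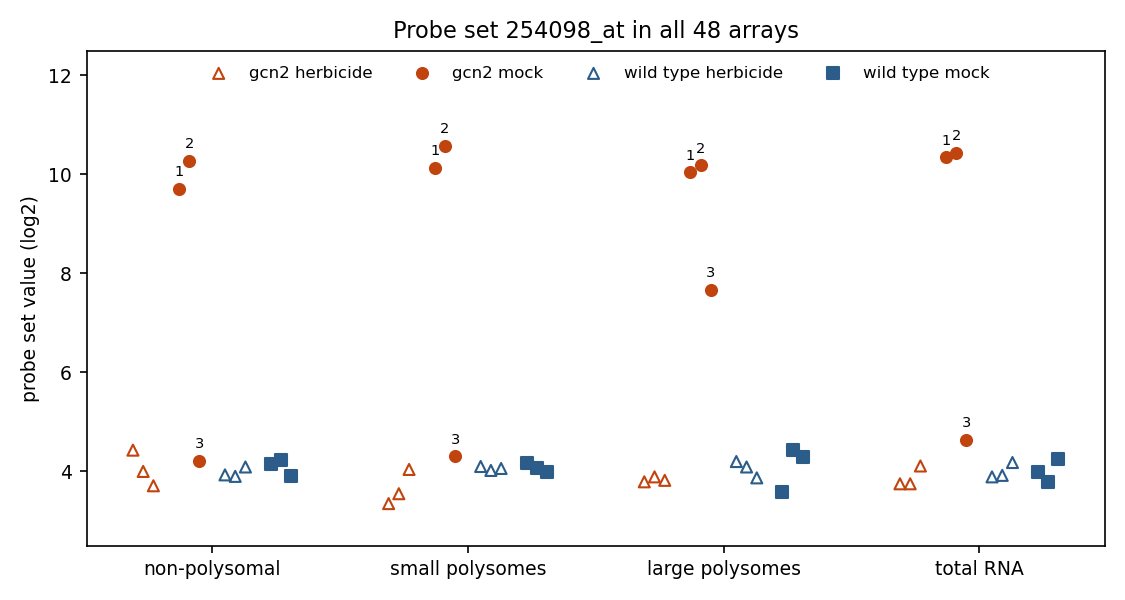
Log2 value of the probe set 254098_at in all 48 arrays, by RNA type on the x axis, with gcn2 in red and wild type in blue, herbicide as open triangles and mock as filled symbols, and replicate numbers at the gcn2 mock arrays. Replicates 1 and 2 of gcn2 mock lay between 9.71 and 10.58 in all 4 RNA types, and the 36 arrays of the other groups between 3.35 and 4.43.

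Across the other RNA pools the 17 probe sets kept their side with 1 exception. The non-polysomal and large polysome pools come from the same gradients as the small polysomes, so these values describe the same plants. In mock non-polysomal RNA all 11 higher probe sets were higher without overlap (background 4.54%), and all 6 lower ones were lower without overlap (5.06%). In mock large polysomes 10 of 11 and 5 of 6 did not overlap (5.44% and 2.34%), and in mock total RNA 11 of 11 and 6 of 6 (5.04% and 6.14%). Genes of 11 of the 17 were already known to differ in this mock total RNA, so their lack of overlap there is no independent support. After herbicide, 10 of 11 and 6 of 6 did not overlap in small polysomes (9.12% and 11.3%), 10 and 5 in non-polysomal RNA (13.2% and 12.3%), 10 and 4 in large polysomes (8.78% and 9.75%), and 10 and 6 in total RNA (10.6% and 11.6%). The exception was 266353_at, at -0.19 in herbicide total RNA. This probe set differed by 1.70 in mock small polysomes, 1.23 in mock non-polysomal RNA, 0.70 in mock total RNA and 0.21 in mock large polysomes.

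**Figure D5:**
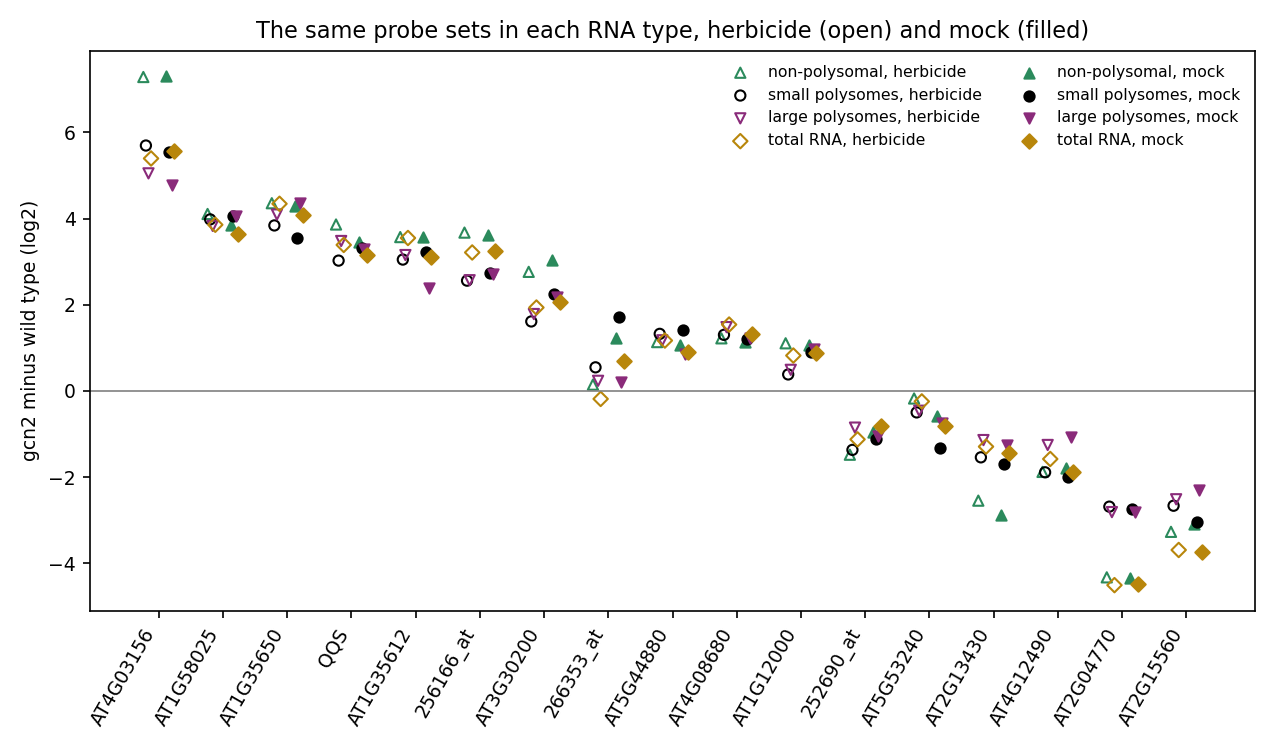
Log2 difference of gcn2 minus wild type for the 17 probe sets in non-polysomal RNA, small polysomes, large polysomes and total RNA, with herbicide as open and mock as filled symbols. AT4G03156 lay between 4.79 and 7.30 in all 8 combinations and AT2G04770 between -4.51 and -2.69, and the 1 point on the other side of 0 was 266353_at in herbicide total RNA (-0.19).

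To ask whether the genotypes differed in loading onto small polysomes, the non-polysomal value of each gradient was subtracted from its small polysome value. For 2 of 22746 probe sets (0.00879%) this difference itself differed between gcn2 and wild type in mock. AT4G03156 had a value of -1.77 ± 0.21 (adjusted p = 0.003). Its level in gcn2 was 8.05 ± 0.18 in small polysomes and 9.63 ± 0.01 in non-polysomal RNA (SD, n = 3). In wild type it was dim in both, at 2.51 ± 0.31 and 2.33 ± 0.46. AT2G04770 had a value of 1.61 ± 0.24 (adjusted p = 0.034), with 4.41 ± 0.57 in small polysomes and 4.48 ± 0.06 in non-polysomal RNA of gcn2, and 7.14 ± 0.36 and 8.82 ± 0.50 in wild type. In each case the genotype with the weaker signal was near the same low level in both pools. AT2G13430 had 1.19 ± 0.23 and did not pass (adjusted p = 0.28). Without wild-type replicate 3, 0 passed by limma (adjusted p = 0.14 and 0.16, with values of -1.75 and 1.75), and 1269 had an unadjusted p under 0.05, against 1103 with it. With the replicate number as a block 1 passed, AT4G03156, and AT2G04770 had an adjusted p of 0.081. AT2G04770 also lost its call without any 1 mock gradient other than gcn2 replicate 2.

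The genotype difference in mock small polysomes was also tested against that in mock total RNA. By limma 0 probe sets passed (0%), and 426 had an unadjusted p under 0.05, fewer than a 0.05 share of all. The fit took the arrays as independent, although total RNA came from plants with the same replicate numbers. With the replicate number as a block, 0 passed and 956 had an unadjusted p under 0.05. The 0 therefore does not show that the genotype differences were the same in the 2 RNA types. AT2G04770 differed most among the 17, with -2.73 in small polysomes and -4.47 in total RNA, a difference of 1.74 ± 0.38 (adjusted p = 1), followed by 266353_at with 1.01 ± 0.25. For AT4G03156 the values were 5.54 in small polysomes and 5.56 in total RNA, and for QQS they were 3.32 and 3.16.

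The genotype difference in small polysomes after herbicide was tested against that in mock. By limma 174 probe sets differed (0.765%), 168 with a higher and 6 with a lower value after herbicide. Without wild-type replicate 3 there were 65, 63 higher and 2 lower, and with the replicate number as a block 294, 254 higher and 40 lower. None of the 17 probe sets was among them, and the smallest adjusted p was 0.11, for 266353_at, at 0.55 after herbicide and 1.70 in mock. AT4G03156 differed by 5.70 after herbicide and 5.54 in mock, AT1G58025 by 3.98 and 4.06, and AT2G15560 by -2.67 and -3.04. AT1G12000 had a difference of 0.38 after herbicide and 0.90 in mock, which did not pass (-0.52 ± 0.22, adjusted p = 0.53).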

How the data were processed

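The deposited table holds log2 values of 22810 probe sets in 48 ATH1 arrays. Per the submitters' processing notes, the authors used RMA, the affy package and MAS5, with versions, and which tool gave this table, not given in the sources used here. RMA corrects background, normalizes across arrays and sums the probes of a set. No genome build is given. After 64 control probe sets were left out, genes were named from the platform annotation and the RefSeq table of TAIR10.1 (13436 matched). The 12 small polysome arrays were fitted with limma 3.58.1 in R 4.3.3 (lmFit, eBayes), with a mean per group and p-values adjusted by Benjamini-Hochberg over all 22746 probe sets at 0.05. Loading, total RNA and herbicide contrasts were fitted likewise. Groups follow the titles. Named genes were the largest called differences (up to 12 per direction, 8 more without wild-type replicate 3, 5 in the other tests), the genes known from mock total RNA, target genes, and per list up to 2 called members per direction or the highest and lowest. The members and lists were chosen with earlier results of these data known. Replicate numbers paired the compared arrays, as the correlations of their deviations were 0.507, 0.313 and 0.216, each above 0.1. The main fit, with 17 calls, did not use this pairing. The fit with the replicate as a block, with 25 calls, did and is given as an alternative. Alternatives were the replicate as a block, left-out arrays, scaling, dim probe sets, the mock arrays only and the variance model. The fit was tested on simulated data with independent noise in each array, which did not cover replicate pairing or an outlying array.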

Additional observations from a re-analysis of the deposited data

Results flagged for a closer look

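For 7 genes the genotype difference in small polysomes was tested as higher or lower after herbicide than in mock, and it had opposite signs in the 2 treatments. AT4G37290 had 2.55 after herbicide and -0.82 in mock, a change of 3.37 ± 0.42 (adjusted p = 0.0015). AT1G78410, a VQ motif protein gene, had 2.87 and -0.69 (3.56 ± 0.55, adjusted p = 0.0088). AT5G39670, which encodes a calcium-binding EF-hand protein, had 3.09 and -0.23 (3.32 ± 0.54, adjusted p = 0.012). AT1G43910 had 2.61 and -0.88 (3.50 ± 0.63, adjusted p = 0.019), and AT5G52760 had 3.36 and -0.79 (4.15 ± 0.76, adjusted p = 0.02). None of these 5 genes passed in mock alone. Their mock differences were -0.44 to 0.10 without wild-type replicate 3, whose mock array was high in herbicide-raised genes, and their changes were then 2.39 to 2.96. The signs were no longer opposite for AT5G52760 (0.06 in mock) and AT5G39670 (0.10 in mock). AT1G43910 lost its call without replicate 2 of gcn2 in either treatment. AT5G52760 lost it without gcn2 herbicide replicate 2 or 3, gcn2 mock replicate 1 or 2, or wild-type herbicide replicate 3.

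The other genes ran the opposite way. AT1G62510, a lipid-transfer-like protein gene, had -1.44 after herbicide and 0.73 in mock, a change of -2.16 ± 0.30 (adjusted p = 0.0034). AT1G75770 had -0.61 after herbicide and 0.30 in mock, a change of -0.91 ± 0.19 (adjusted p = 0.041) that was lost without any 1 of the 12 small polysome arrays. Neither gene passed in mock alone. Without wild-type replicate 3 of both treatments, AT1G62510 had 0.58 in mock and a change of -1.81 (limma, adjusted p = 0.014). AT1G75770 then had 0.32 in mock and a change of -0.92 (adjusted p = 0.14).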

How the results depend on the processing

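The count of 17 became 11 without the array labelled wild-type mock replicate 3 and ranged from 11 to 16 when 1 of the 6 arrays was left out. It was 11 with the 6 mock arrays alone and 13 without wild-type replicate 3 in both treatments. With the replicate number as a block it was 25, including all 17, and array weights gave 23. Over 238 values of the 17 probe sets, 0 turned direction and 44 lost the call, all in 252690_at, AT1G12000, AT4G08680, AT4G12490, AT5G44880 and AT5G53240. AT1G42705, which did not pass, passed with the block, without gcn2 replicate 1 (adjusted p = 0.017) and with array weights (adjusted p = 0.022). The unnamed 254098_at passed without gcn2 replicate 3 (6.29) and with array weights (5.04). Loading had 2 calls, 1 with the replicate block, 1 with the mock gradients alone, 0 without wild-type replicate 3 in both treatments, and 1 to 2 with 1 gradient left out. Against total RNA 0 passed in each alternative, 956 at an unadjusted p under 0.05 with the block. The 174 differences between herbicide and mock were 294 with the replicate block (254 higher and 40 lower) and 65 without wild-type replicate 3 in both treatments. They ranged from 49 (without gcn2 mock replicate 2) to 193 (without wild-type mock replicate 1) with 1 array left out, and were 84 without wild-type herbicide replicate 3 and 75 without wild-type mock replicate 3. The block changed no other call among the named genes except those given here and in the text.

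Directions turned for 10 list members that did not pass, among them BZIP60, at -0.40 with all arrays, which turned without wild-type replicate 3. With 1 array left out, EIF4A-2 ranged from -0.05 to 0.25, AT5G20290 from -0.053 to 0.16, AT3G23940 from -0.28 to 0.023, PYK10 from -0.11 to 0.28, CML41 from -0.22 to 0.19 and RCA from -0.26 to 0.32. LHCB4.2 ranged from -0.14 to 0.074, WRKY22 from -0.12 to 0.31, PDF1.2 from -0.10 to 0.18 and BZIP60 from -0.70 to 0.084. Without wild-type replicate 3 in both treatments LHCB4.2 was at 0.074, BZIP60 at 0.084 and CML41 at 0.19. CML41 was at 0.027 with arrays centred and 0.034 with quantile normalization, and with array weights LHCB4.2 was at 0.017 and PDF1.2 at -0.039. The causes were not tested. Arrays limit precision by their number, and dim wild-type means limit the size of the differences at AT4G03156, AT1G35650, AT3G30200 and 256166_at. The same limit holds for AT5G44880 and AT4G08680, whose wild-type means of 3.64 and 3.54 lay within the range of the lower quartiles.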
